A study of Mus musculus with 30 samples.

Results

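Loss of Brap driven by Thy1-Cre was compared directly with loss of Brap driven by Tie2-Cre in the whole cerebral cortex of mice aged 3 months. The comparison used 10 of the 30 bulk RNA-seq libraries of the study, chosen by their labels alone: 5 of genotype Brapflox/floxThy1Cre, whose phenotype is labelled strong, and 5 of genotype Brapflox/floxTie2Cre, whose phenotype is labelled mild. Both groups carry 2 floxed Brap alleles and a Cre, so they differ in the cells where the gene was to be deleted. Per the study's design text, Thy1-Cre acts in postnatal neurons and Tie2-Cre in vascular endothelium. The model behind the tests was fitted to all 30 libraries, so the filter and the estimate of spread drew on every group. The other groups were controls (Brapflox/wt, no Cre) aged 3 and 10 months and Brapflox/floxEmx1Cre mice of the same ages. The Emx1-Cre phenotype is labelled strong at 3 months and recovered at 10 months. The 4 control libraries aged 3 months serve here as a reference level, and 17796 of 54418 genes were tested. The contrast equals the difference between the 2 deletions' own differences from those controls. No group here carries a Cre without a fully floxed gene, so the effect of a driver itself and that of the deletion cannot be told apart.

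Brap encodes a RING-type ubiquitin ligase that binds activated Ras and holds back MAP kinase signalling, and it also binds nuclear localization signals in the cytoplasm. Thy1 transgenes are switched on in projection neurons after birth, while Tie2 (now Tek) is the angiopoietin receptor of endothelium. Tie2-Cre is also known to act in the blood-forming lineage. In injured or diseased cortex, astrocytes take on filament proteins such as GFAP, microglia move to a phagocytic programme, and endothelium puts adhesion molecules on its surface.

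The 10 libraries held between 21996022 and 28719731 counts. Their mitochondrial share was 5.09 to 6.33% with Thy1-Cre and 6.24 to 7.23% with Tie2-Cre. Sex differed between the groups: by Xist and Y-linked genes all 5 Thy1-Cre libraries were female, against 2 of 5 Tie2-Cre libraries (replicates 4 and 5) and 2 of 4 controls. Haemoglobin transcripts made up 0.00488 to 0.0238% of counts with Thy1-Cre, below the whole Tie2-Cre range of 0.0395 to 0.0539%. On the first principal component, which held 39.81% of the variance, 4 Thy1-Cre libraries lay between 44.95 and 70.11 and the Tie2-Cre libraries between -48.1 and -38.5. Replicate 2 of Thy1-Cre stood apart from its group at -2.439. In bulk tissue, fewer cells of a type and less RNA per cell cannot be told apart.

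Brap itself was not lower with Thy1-Cre. Its level, in CPM (counts scaled to library size by TMM), was 74.4, 86.5, 90.4, 71.7 and 80.5 in Thy1-Cre replicates 1 to 5 and 68.0, 66.1, 65.6, 71.1 and 59.7 in Tie2-Cre replicates 1 to 5. The groups did not overlap, with Thy1-Cre above, and the controls lay between 58.4 and 66.5 CPM. The log2 fold change of 0.29 ± 0.11 (SE) did not pass the test over all genes (edgeR quasi-likelihood, adjusted p = 0.0737). It passed when the 10 libraries were fitted alone (adjusted p = 0.0283) and by limma voom (adjusted p = 0.0373). Brap lies on chromosome 5 (121660563 to 121687256, GRCm38), and these gene-level counts include every part of the transcript. Which part of the gene is floxed is not stated in the labels, so this level is no measure of how far the gene was deleted.

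The genes whose promoters drive Cre were close between the groups. Thy1, a surface glycoprotein of neurons, stood at 524, 711, 558, 463 and 425 CPM with Thy1-Cre and at 537, 523, 595, 504 and 537 CPM with Tie2-Cre, ranges that overlap (log2 fold change -0.01 ± 0.12, adjusted p = 0.97). Tek measured 9.75, 8.83, 6.53, 11.8 and 8.94 CPM with Thy1-Cre and 11.1, 10.8, 8.84, 9.08 and 7.69 CPM with Tie2-Cre, again overlapping (-0.05 ± 0.21, adjusted p = 0.894). Emx1, the driver used elsewhere in the study, gave 0.29 ± 0.21 (adjusted p = 0.343). The label of cortex was checked with Slc17a7, the vesicular glutamate transporter of cortical projection neurons, which averaged 1698 ± 476 CPM (SD, n = 5) with Thy1-Cre and 1257 ± 67.3 CPM (SD, n = 5) with Tie2-Cre. It was abundant in both groups, and the difference did not pass (adjusted p = 0.106).

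Between the deletions, 2200 genes (12.4% of those tested) were called higher with Thy1-Cre and 1492 (8.38%) lower, at an adjusted p under 0.05. The counts given below for gene lists are to be read against these shares. At least 2-fold changes numbered 1040 upward (5.84%) and 354 downward (1.99%). The libraries of the groups did not overlap in 2517 genes (14.1%), and in 1271 of these (7.14% of those tested) every Thy1-Cre library lay above every Tie2-Cre library. Set against the controls, the 1040 genes had a median log2 difference of 1.89 with Thy1-Cre and of 0.0232 with Tie2-Cre. For the 354 genes these medians were -1.34 and 0.0621. Thy1-Cre against control gave 1866 higher (10.5%) and 1345 lower genes (7.56%). Tie2-Cre against control gave 0 called genes by edgeR (299 at an unadjusted p under 0.05, 1.68% of genes) and 7 by DESeq2. Fitted alone, those 9 libraries gave 2 by edgeR, with 863 (5.26%) at an unadjusted p under 0.05.

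**Figure D1:**
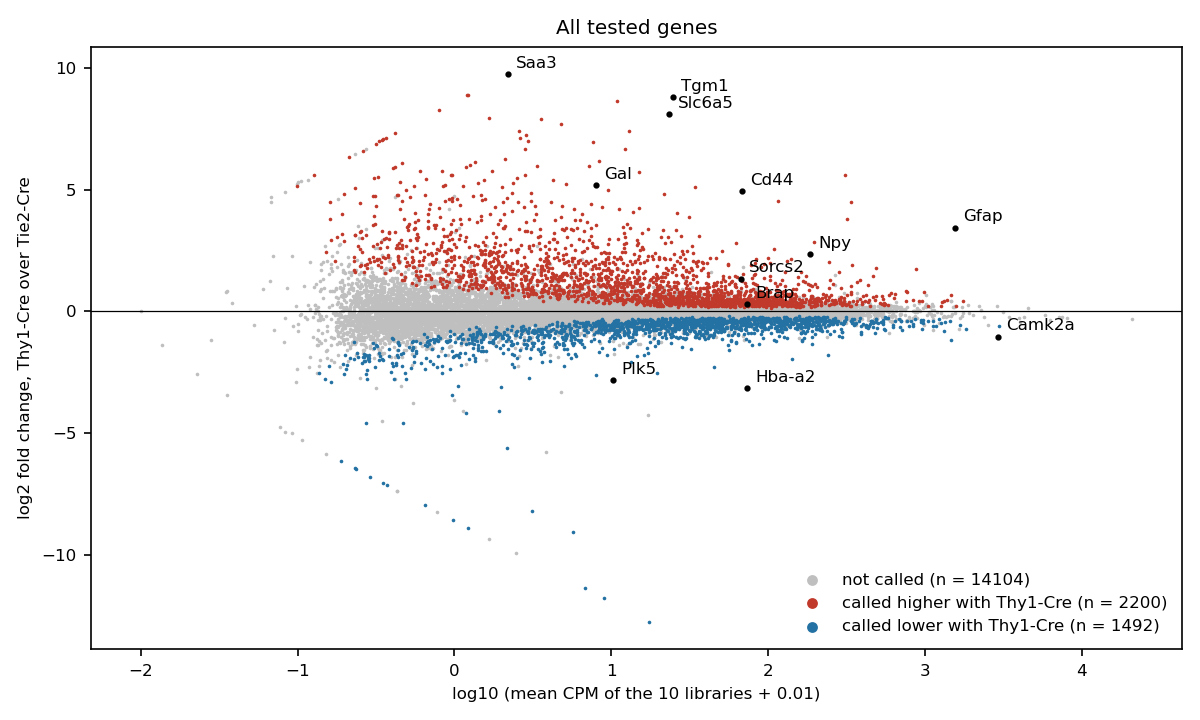
Each point is 1 of 17796 tested genes, with the mean level of the 10 libraries on the x axis (log10 of CPM + 0.01) and the log2 fold change of Thy1-Cre over Tie2-Cre on the y axis, coloured by call at an adjusted p under 0.05. The 4 blue points under -9 are the Y-linked genes Ddx3y, Eif2s3y, Kdm5d and Uty, which follow the sex of the libraries. Apart from these 4, the upward calls (2200 in all) reach larger folds than the downward ones (1492 in all).

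Sex bears on every count here. With sex as a covariate 1644 genes were called higher and 1019 lower. Among females alone, where 5 Thy1-Cre libraries meet only 2 of Tie2-Cre, the counts were 193 and 206. Of 166 called genes followed across all alternatives, 43 were also called among females alone, none changed sign, and the part of sex in the others was not tested. Most of the 166 were chosen by size or p-value in these same libraries, which favours a kept sign. With no filter on low counts 18 of the 166 missed the threshold, each of which also missed it without at least 1 single library. Without replicate 5 of Thy1-Cre 965 genes were called lower. Leaving out any other of the 10 libraries kept the counts between 1700 and 2353 upward and between 1134 and 1623 downward.

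Thy1-Cre libraries differed more among themselves than Tie2-Cre libraries. The median SD of log2 CPM was 0.302 with Thy1-Cre and 0.174 with Tie2-Cre, and it was larger with Thy1-Cre in 78.9% of genes. Among genes called at least 2-fold higher the medians were 0.955 and 0.356. Each Thy1-Cre library was then left out in turn and read against genes called without it. The same 5 Tie2-Cre libraries had entered those calls, so part of any excess over all tested genes is set by the choice of genes. Replicates 1, 3, 4 and 5 lay above all 5 Tie2-Cre libraries in 88.2%, 83.3%, 88.4% and 92.2% of the genes called at least 2-fold higher in their absence. Over all tested genes their shares were 31.9 to 32.1%. Replicate 2 did so in 47.8% of 1179 genes, against 27.3% of all tested genes. In the downward direction replicate 2 lay below all Tie2-Cre libraries in 66.1% of 434 genes, against 26.5% of all genes. The other 4 did so in 78.7 to 88.0%, against 29.8 to 32.7% of all genes.

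**Figure D2:**
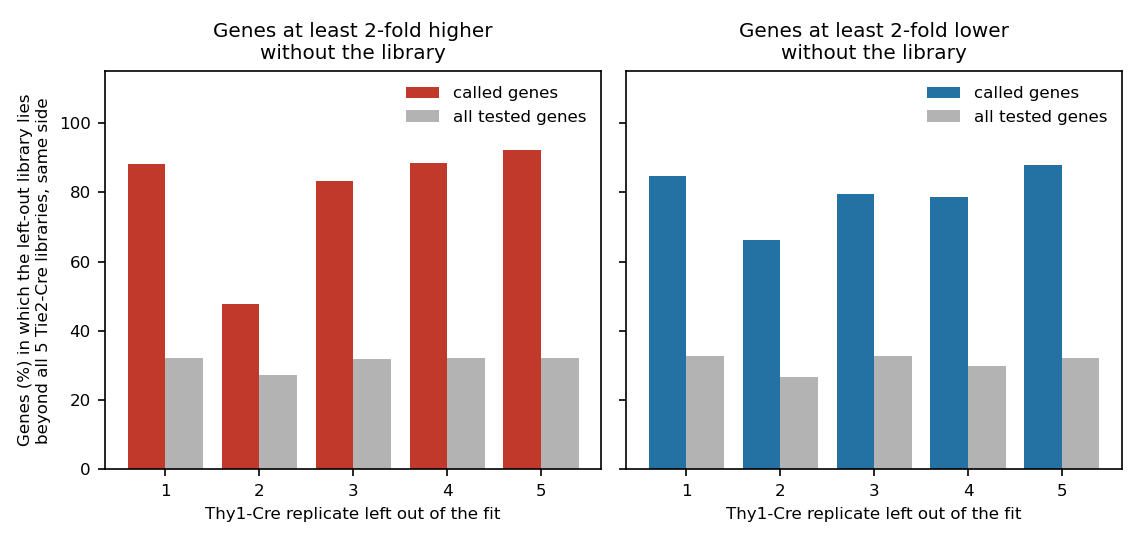
Bars give the percentage of genes in which a left-out Thy1-Cre library (x axis, replicate number) lay beyond all 5 Tie2-Cre libraries on the called side, for genes called at least 2-fold without it (coloured) and for all tested genes (grey). Replicate 2 has the lowest coloured bar in both panels (47.8% and 66.1%). Each coloured bar is above its grey one, in part because the same Tie2-Cre libraries entered the calls.

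The genes named next were chosen, after their values were seen, by smallest p among genes whose groups did not overlap. That every Thy1-Cre library, replicate 2 included, lay beyond Tie2-Cre in them thus follows from the choice. Aspg, an asparaginase, measured 12.3, 15.9, 21.7, 21.8 and 26.4 CPM with Thy1-Cre and 2.18, 1.98, 2.99, 2.74 and 2.49 CPM with Tie2-Cre (log2 fold change 2.99 ± 0.28, adjusted p = 2.09e-07). Lsp1, an actin-binding protein of leukocytes, measured 10.2, 11.4, 11, 12.6 and 13.2 CPM against 3.48, 3.22, 3.31, 3.95 and 3.46 CPM (1.74 ± 0.19, adjusted p = 2.59e-06). In both genes the lowest Thy1-Cre library was above the highest Tie2-Cre library with room to spare, and the Lsp1 libraries were tight within each group. Blnk, a linker in antigen receptor signalling, measured 26.0, 50.7, 33.3, 24.5 and 32.8 CPM against 5.95, 5.15, 9.89, 8.12 and 6.68 CPM (2.23 ± 0.25, adjusted p = 3.17e-06), and its highest value was in replicate 2. Dpm3, a subunit of dolichol-phosphate mannose synthase, measured 30.5, 36.8, 31.2, 26.4 and 38.4 CPM against 7.37, 7.13, 7.68, 7.77 and 7.23 CPM (2.14 ± 0.24, adjusted p = 3.17e-06).

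Cd1d1, a lipid-presenting molecule, rose from 0.726 ± 0.236 CPM (SD, n = 5) with Tie2-Cre to 6.07 ± 1.55 CPM (SD, n = 5) with Thy1-Cre, although 24.8% of its 31-base words also occur in other genes. Tlr2, a receptor for bacterial lipoproteins, measured 16.6, 2.90, 16.9, 41.1 and 28.3 CPM with Thy1-Cre and 1.31, 0.930, 1.06, 1.26 and 1.23 CPM with Tie2-Cre (4.19 ± 0.50, adjusted p = 7.51e-06), with replicate 2 the lowest of its group but still above Tie2-Cre. Downward, Fgf13, an intracellular partner of sodium channels, measured 62.4, 91.3, 74.5, 62.0 and 50.7 CPM with Thy1-Cre and 161, 161, 137, 160.5 and 161 CPM with Tie2-Cre (-1.20 ± 0.14, adjusted p = 7.37e-06). The other downward genes chosen in this way were Efcc1 (-1.33 ± 0.15), B230217C12Rik (-1.05 ± 0.12) and AI593442 (-0.90 ± 0.11). None of the genes in these 2 paragraphs lost its call in any alternative tried, females alone included.

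Largest in fold were genes close to silent with Tie2-Cre. Saa3, an acute-phase serum amyloid protein, had 0 counts in all 5 Tie2-Cre libraries and 0.812, 0.0879, 1.89, 15.1 and 3.85 CPM with Thy1-Cre, which is at least 186-fold higher against a floor of 3 counts over the group (74-fold without replicate 4 of Thy1-Cre). Tgm1, a transglutaminase, measured 36.9, 0.220, 39.6, 82.4 and 88.3 CPM with Thy1-Cre and 0.218, 0.0387, 0.0920, 0.0868 and 0.0845 CPM with Tie2-Cre (8.79 ± 1.29, adjusted p = 6.56e-05). In both genes replicate 2 of Thy1-Cre was near the Tie2-Cre level. Slc6a5, the neuronal glycine transporter (chromosome 7, 49910146 to 49963856, GRCm38), differed from them: it measured 13.7, 15.2, 100.1, 21.6 and 83.2 CPM with Thy1-Cre, and at most 0.380 CPM with Tie2-Cre and 0.164 CPM in controls (8.10 ± 1.36, adjusted p = 0.00023). Its call was kept among females alone and lost only by limma voom (adjusted p = 0.0842).

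Ptx3, a soluble pattern-recognition protein, measured 2.18, 0.176, 88.7, 5.66 and 33.0 CPM with Thy1-Cre and 0.0775 to 0.230 CPM with Tie2-Cre (7.40 ± 1.12, and 6.07 without replicate 3 of Thy1-Cre). Replicate 2 fell inside the Tie2-Cre range. Tnfsf11, the cytokine RANKL, had 406 counts over the Thy1-Cre libraries and 1 over Tie2-Cre, a ratio of 408 with a 95% counting interval of 72.8 to 16200. The 1 count lay in replicate 5 of Tie2-Cre, without which the fold was at least 110, and without replicate 3 of Thy1-Cre the ratio was 267. Serpina3m had 944 against 3 counts (316, interval 108 to 1540), a ratio of 207 without replicate 5 of Thy1-Cre and 765 without replicate 5 of Tie2-Cre. ETV3L, a label not found in GENCODE M21, had 585 against 3 (196, interval 66.7 to 953), or 120 without replicate 3 of Thy1-Cre and 474 without replicate 5 of Tie2-Cre. Krt6a, an epithelial keratin that shares 51.3% of its words with other genes, was at 0 in Tie2-Cre and at least 95.8-fold higher with Thy1-Cre (45-fold without replicate 3), although 2 of the 5 Thy1-Cre libraries were also at 0. The other upward genes of this rank are uncertain: Rbpj-ps3 and Rpl35a-ps3 are pseudogenes (93.2% and 100% shared words), Gm49339 shares 97.5%, and AC142112.1 was not found in the annotation.

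Leaving aside the Y-linked genes, many of the largest downward changes belong to families of near-identical copies. Plk5, a polo-like kinase of differentiated neurons, measured 1.75, 3.73, 1.38, 4.34 and 1.38 CPM with Thy1-Cre and 19.3, 23.8, 14.7, 20.8 and 11.2 CPM with Tie2-Cre (-2.83 ± 0.39, adjusted p = 2.6e-05), with no overlap and controls at 19.2 to 21.7 CPM. Myoc, a secreted olfactomedin protein, fell from 13.6 ± 4.81 to 2.26 ± 1.51 CPM (SD, n = 5 each), and Gm765 fell from 5.19 ± 0.955 to 0.773 ± 0.273 CPM (SD, n = 5 each), the latter not past the threshold with sex as a covariate (adjusted p = 0.0559). Gm13301, Gm21955, Gm10599, 3110053B16Rik, Gm3055, Zfp125 and 2410018L13Rik were the others. Of these, Gm13301, Gm21955, Gm3055 and 2410018L13Rik share 88.0%, 80.4%, 96.0% and 58.3% of their words with other genes, and in each except Gm3055 some Tie2-Cre libraries were at the Thy1-Cre level. Gm13301 and Gm10599 lost their calls without any of several single libraries (adjusted p up to 0.072 and 0.0961 without Tie2-Cre replicate 5 and Thy1-Cre replicate 5).

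**Figure D3:**
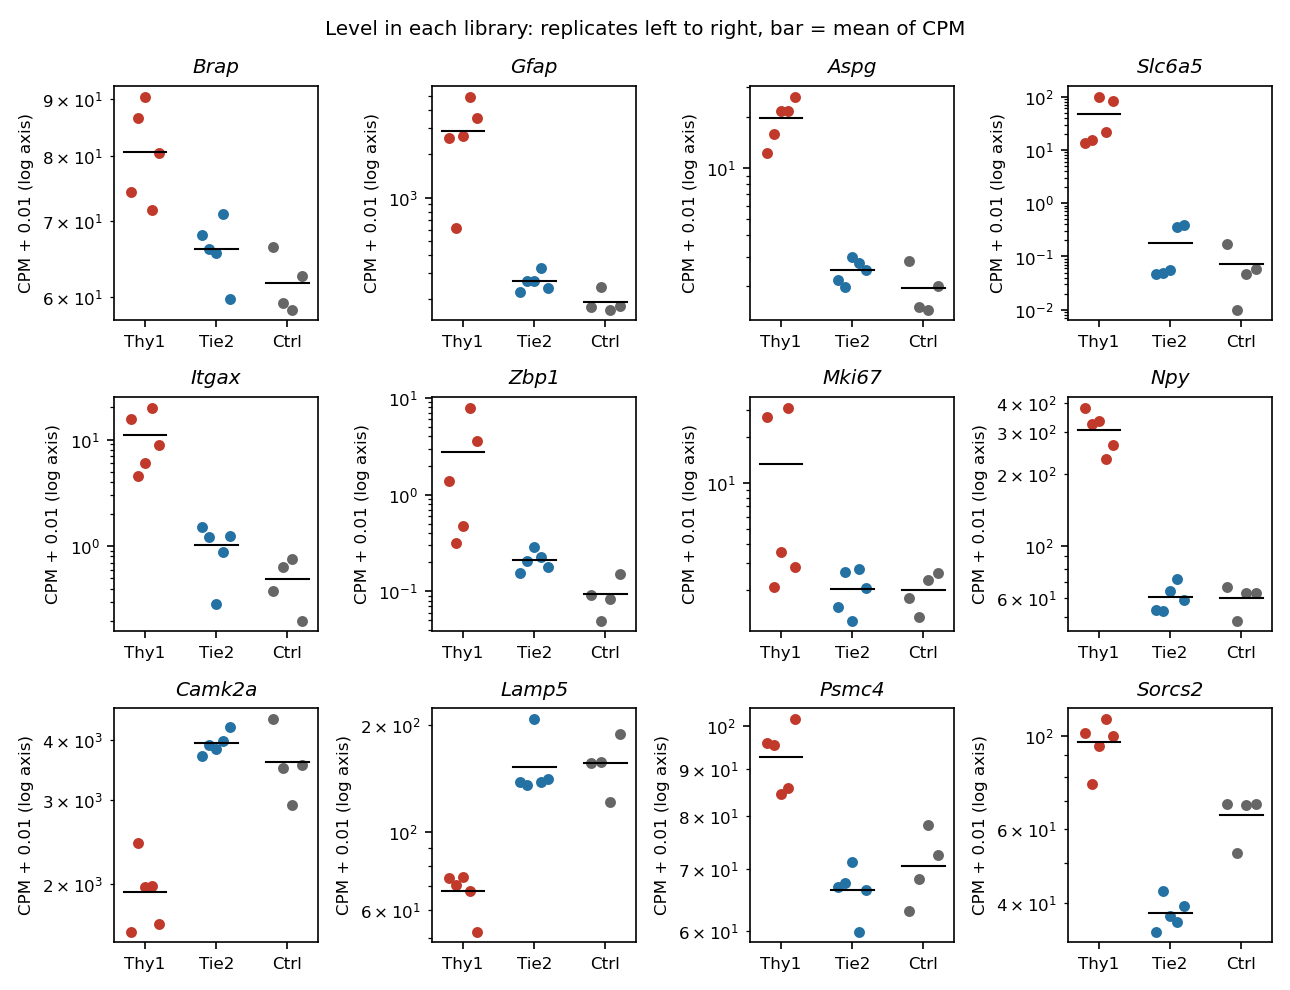
Each panel shows 1 gene, with its level in CPM + 0.01 on a log axis, points for the 5 Thy1-Cre, 5 Tie2-Cre and 4 control libraries in replicate order from left to right, and a bar at the mean. Aspg, Slc6a5, Npy and Lamp5 separate all Thy1-Cre from all Tie2-Cre libraries, Mki67 is high in only 2 Thy1-Cre libraries (26.9 and 31 CPM), and Sorcs2 is lower with Tie2-Cre than in controls.

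Genes of reactive astrocytes were higher with Thy1-Cre almost throughout the list. Of 26 members, 25 rose and none fell, with a median log2 fold change of 3.21, against 0.00368 over all tested genes, and in 11 the groups did not overlap. Gfap, the intermediate filament of astrocytes, measured 2565, 621, 2640.1, 4971 and 3530.3 CPM with Thy1-Cre and 222, 265, 267, 328 and 238 CPM with Tie2-Cre (3.44 ± 0.40, adjusted p = 7.37e-06), so that even replicate 2 exceeded every Tie2-Cre library. Cd44, the hyaluronan receptor, measured 56.8, 10.0, 191, 101 and 304 CPM against 4.97, 4.26, 3.36, 4.60 and 4.27 CPM (4.94 ± 0.66). Osmr, the oncostatin M receptor, rose by 3.34 ± 0.47. Averaged over the list, log2 CPM was 2.43 in replicate 2 and 4.81 to 6.09 in the other Thy1-Cre libraries, with 1.85 to 2.20 in Tie2-Cre. Among females alone 3 members were called, and of those named Gfap and Aspg kept their calls.

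Homeostatic astrocyte genes did not follow. Of 20, only Aqp4, the water channel of astrocyte endfeet, rose (145 ± 23.4 with Tie2-Cre and 350 ± 157 CPM with Thy1-Cre, SD, n = 5 each, 1.28 ± 0.29). Ntsr2 (-0.81 ± 0.24) and the sphingosine-phosphate receptor S1pr1 (-0.57 ± 0.20) fell, and the list's median was -0.25. Both downward calls were lost when sex entered as a covariate (adjusted p = 0.0593 and 0.182) and when replicate 5 of Thy1-Cre was left out (0.0603 and 0.121), S1pr1 also without replicate 1 or 3 of Thy1-Cre or replicate 1, 2, 3 or 4 of Tie2-Cre (0.0575 to 0.101). The downward count ranged from 0 to 5 over the left-out libraries. It was 2 by DESeq2, 4 with the 10 libraries fitted alone and 7 by limma voom. The glutamate transporter gene Slc1a3, at 526 ± 69.9 against 710 ± 105 CPM (SD, n = 5 each), had groups that did not overlap without passing (adjusted p = 0.0817), and passed by limma voom (0.0188) and with the 10 libraries fitted alone (0.0262).

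**Figure D4:**
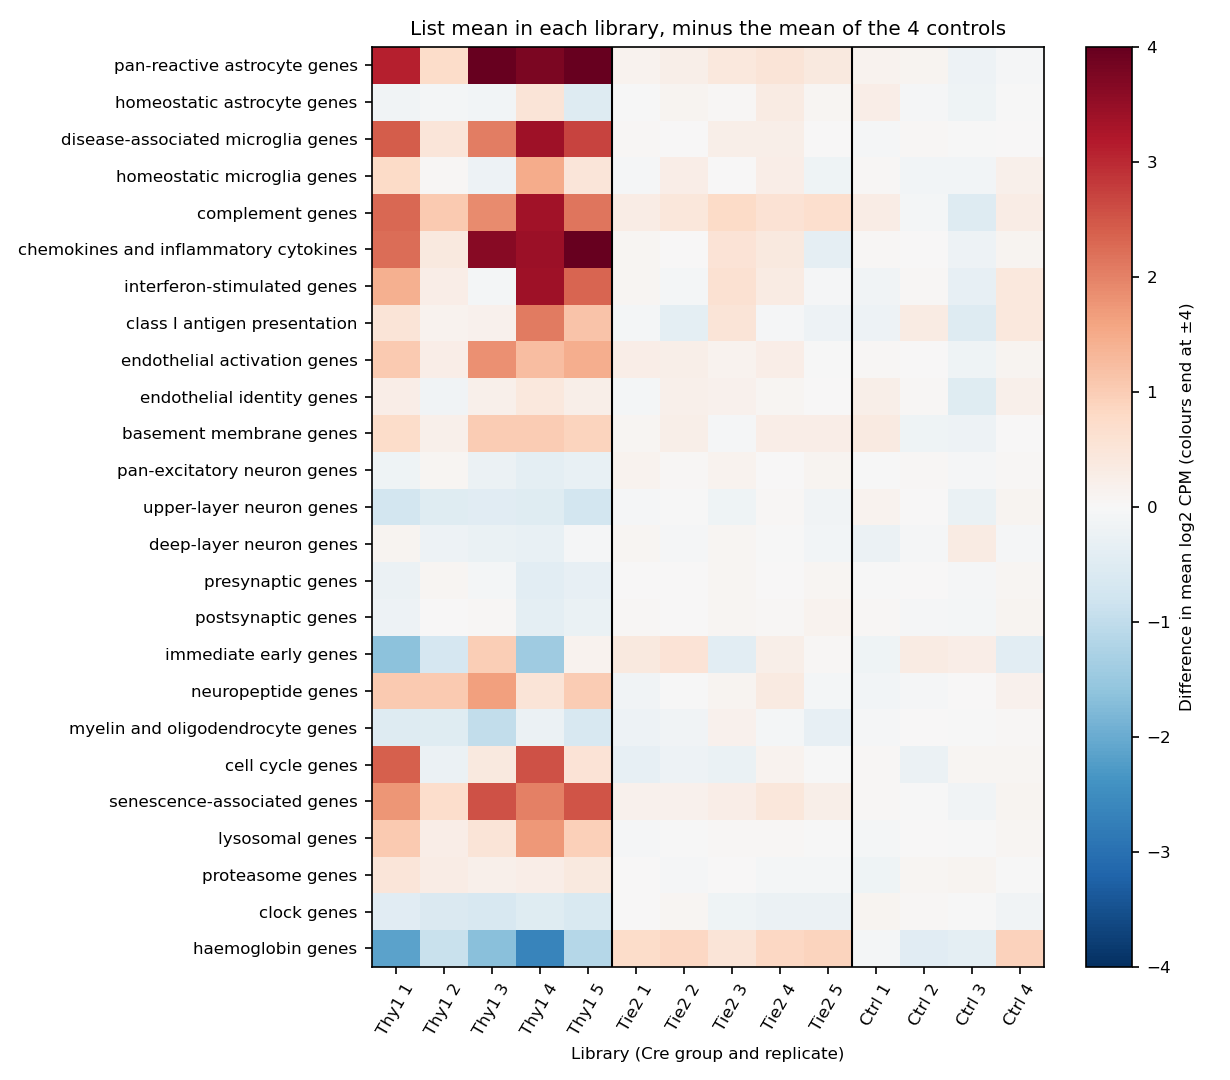
Rows are gene lists and columns the 5 Thy1-Cre, 5 Tie2-Cre and 4 control libraries of age 3 months, and the colour is the mean log2 CPM of the list's tested members in that library minus its mean over the 4 controls. Thy1-Cre replicate 2 lies below the other 4 in the reactive astrocyte row (0.73 against 3.10 to 4.38) and within their range in the neuropeptide row (1.05) and the faint proteasome row (0.31).

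Microglia genes of the disease-associated programme rose with Thy1-Cre, while the homeostatic ones did so only in part. Of 25 disease-associated genes, 20 rose and none fell (median 1.97, no overlap in 10). The 5 not called were Apoe (-0.30 ± 0.27, adjusted p = 0.47), Axl, Lpl, Fth1 and Fabp5. Itgax, the integrin CD11c, measured 15.7, 4.52, 6.02, 19.9 and 8.94 CPM with Thy1-Cre and 1.49, 1.2, 0.276, 0.868 and 1.23 CPM with Tie2-Cre (3.43 ± 0.49, adjusted p = 3.69e-05). Cst7, a lysosomal cystatin, measured 4.32, 0.395, 1.47, 11 and 10.7 CPM with Thy1-Cre and at most 0.138 CPM with Tie2-Cre (6.68 ± 1.02, and 7.33 without replicate 3 of Tie2-Cre). Neither gene overlapped, and replicate 4 was the highest in both. Gpnmb, a lysosomal glycoprotein, rose by 2.96 ± 0.46 and the chemokine gene Ccl3 by 5.96 ± 0.85 (6.89 without replicate 3 of Tie2-Cre). Among females alone 4 members were called, with Itgax, Cst7 and Gpnmb among them.

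Of 18 homeostatic microglia genes, 6 rose and none fell, and 2 rose without replicate 4 of Thy1-Cre. P2ry12, the purinergic receptor that marks resting microglia, measured 24.0, 38.3, 14.3, 38.7 and 24.2 CPM with Thy1-Cre and 46.9, 49.4, 27.2, 47.5 and 28.3 CPM with Tie2-Cre, with overlap and no call (-0.52 ± 0.40, adjusted p = 0.39). Tmem119 gave 0.58 ± 0.30 (adjusted p = 0.176). Olfml3 (1.57 ± 0.41) and Aif1, an actin-binding protein of microglia (1.00 ± 0.27), rose. Ptprc, the pan-leukocyte phosphatase CD45 (1.29 ± 0.35), rose too but lost its call without replicate 4 of Thy1-Cre (adjusted p = 0.0572) and when the 10 libraries were fitted alone (0.0582). The summed level of the 18 genes ran from 535 to 1790 CPM with Thy1-Cre and from 509 to 662 CPM with Tie2-Cre, and its part in the other microglia results was not tested. Olfml3, Aif1 and Ptprc were not called among females alone (adjusted p = 0.184 to 0.25).

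Complement genes rose in 9 of 12 cases and fell in none (median 1.93). C1qa, part of the initiating complex, rose from 50.8 ± 8.37 to 212 ± 150 CPM (SD, n = 5 each, 2.06 ± 0.43, no overlap). C3, the central component, rose by 2.98 ± 0.64 (2.20 without replicate 4 of Thy1-Cre) and its receptor C3ar1 by 3.24 ± 0.59 (2.41 without the same library). C4b averaged 227 ± 95.9 CPM with Thy1-Cre, 85.7 ± 23.8 with Tie2-Cre (SD, n = 5 each) and 35.3 ± 15.2 in controls (SD, n = 4), and rose by 1.40 ± 0.27, although 48.3% of its words are shared with other genes. Among females alone no complement gene was called.

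Chemokine and cytokine genes rose in 15 of 17 tested cases (20 listed), with a median of 3.67 and none lower. Il1rn, the interleukin-1 receptor antagonist, measured 2.01, 0.264, 6.30, 5.10 and 12.3 CPM with Thy1-Cre and 0.145 CPM in replicate 1 of Tie2-Cre, with 0 in the other 4 (7.13 ± 0.94). That value became 6.53 without replicate 5 of Thy1-Cre and 9.99 without replicate 1 of Tie2-Cre. The groups did not overlap, and Il1rn was the named member kept among females alone. The chemokine gene Ccl4 rose by 6.25 ± 1.06 (6.87 without replicate 5 of Tie2-Cre), and Lif, a cytokine of the interleukin-6 family, by 4.22 ± 0.75 (3.03 without replicate 3 of Thy1-Cre, which held 36.0 of its CPM). When only the 10 libraries were fitted 5 members of the list were called. That fit had its own filter on low counts, and members it left out count here as not called.

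Interferon-stimulated genes rose in a subset of the Thy1-Cre libraries. Of 34, 16 rose and none fell (median 1.94, no overlap in 4). Their mean log2 CPM was 2.63, 4.60 and 3.55 in replicates 1, 4 and 5 of Thy1-Cre, 1.47 and 1.12 in replicates 2 and 3, and 1.14 to 1.84 with Tie2-Cre. Replicates 2 and 3 thus lay within the Tie2-Cre range or below it. Zbp1, a nucleic acid sensor, measured 1.37, 0.308, 0.460, 7.93 and 3.58 CPM with Thy1-Cre and 0.145 to 0.276 CPM with Tie2-Cre (3.75 ± 1.00, 2.84 without replicate 4 of Thy1-Cre). Ifitm3, a membrane protein that blocks viral entry, measured 25.5, 9.84, 18.4, 84.9 and 41.2 CPM against 5.89 to 11.3 CPM (2.17 ± 0.48, 1.58 without replicate 4), with 20.5% shared words. The guanylate-binding protein gene Gbp2 rose by 2.38 ± 0.65.

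The interferon calls by edgeR rested on few libraries, and their number varied with the tool. DESeq2 called 21 of the 34 higher and limma voom 27, against 12 with the 10 libraries fitted alone and 2 with the replicate number as a block. Without replicate 4 of Thy1-Cre 3 of the 34 genes were called, and without any 1 of replicate 5 of Thy1-Cre or replicates 1, 2 and 5 of Tie2-Cre the count was 7 to 10. Bst2, also called tetherin, rose by 2.51 ± 0.69 but not without replicate 4 (1.65, adjusted p = 0.0695). Isg15, a ubiquitin-like modifier, measured 3.72, 0.835, 0.598, 31 and 9.62 CPM with Thy1-Cre and 0.762, 0.620, 1.98, 0.478 and 0.634 CPM with Tie2-Cre. Its ranges overlap, and its change of 3.36 ± 1.04 (adjusted p = 0.0227) lost the call without replicate 4 of Thy1-Cre (2.07, adjusted p = 0.136) and without replicate 1, 2, 4 or 5 of Tie2-Cre (0.0514 to 0.0536). Ifit1 (2.16 ± 0.97, adjusted p = 0.118, and 0.036 by limma voom) and Rsad2 (1.58 ± 1.04, adjusted p = 0.301), both classical interferon targets, did not pass. No member of the list was called among females alone.

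Interferon drives genes through the factor ISGF3, which reads a short promoter element, and 6 of 13 members called higher that have a RefSeq promoter held its core. A search of the 250 bases before the start for the core of this interferon-stimulated response element (GAAA repeated after a gap of 2 bases, on either strand, overlapping matches allowed) found it in 13 of the 24 list members with a RefSeq promoter (54.2%), against 3.46% of 27025 genes. Shown are 2 genes that passed and 2 that did not, from RefSeq (GRCm38.p6), read 5′ to 3′ on the strand of the gene, with the matched core in capitals.
Isg15 (chr4:156200850-156200921, minus strand): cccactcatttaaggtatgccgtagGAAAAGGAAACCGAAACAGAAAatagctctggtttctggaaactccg
Bst2 (chr8:71537562-71537627, minus strand): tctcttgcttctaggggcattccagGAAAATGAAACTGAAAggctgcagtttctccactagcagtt
Ifit1 (chr19:34640760-34640838, plus strand): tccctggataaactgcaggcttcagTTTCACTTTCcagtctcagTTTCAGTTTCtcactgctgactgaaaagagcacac
Rsad2 (chr12:26456538-26456597, minus strand): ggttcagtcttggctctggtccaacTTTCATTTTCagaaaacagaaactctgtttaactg
The core thus stands in called and uncalled genes alike, in 3 overlapping copies in Isg15 and in 1 in Rsad2.

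Antigen presentation genes showed the same dependence on single libraries. Of 14 class I genes, 5 rose and none fell, among them H2-K1 (1.43 ± 0.42), the transactivator gene Nlrc5 (2.10 ± 0.62, 1.47 without replicate 4 of Thy1-Cre), the immunoproteasome subunit gene Psmb8 (1.53 ± 0.48) and H2-D1 (0.88 ± 0.29). Without replicate 4 of Thy1-Cre none of the 14 was called (adjusted p = 0.088 to 0.131 for the 4 named), and with sex as a covariate 8 were. DESeq2 called 7 and limma voom 11, against 4 with the 10 libraries fitted alone and 2 with the replicate number as a block. Psmb8 and H2-D1 were also lost without replicate 5 of Thy1-Cre or replicate 1 or 5 of Tie2-Cre, H2-D1 without replicate 2 of Tie2-Cre or with the 10 libraries alone too, and Nlrc5 without replicate 1 of Tie2-Cre (0.0501). H2-K1 and H2-D1 share 22.8% and 26.7% of their words with other genes. Among 7 class II genes only H2-DMb1, a peptide-loading chain with 31.4% shared words, rose (0.887 ± 0.180 to 2.79 ± 1.20 CPM, SD, n = 5 each, 1.65 ± 0.33).

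Of 18 listed genes of blood-borne leukocytes, 8 had enough counts to be tested, 0 were called higher and Cd4 was called lower (-1.34 ± 0.47, adjusted p = 0.0439). That call was lost in most alternatives, among them each of the left-out Thy1-Cre libraries (adjusted p = 0.0551 to 0.1), replicates 1, 2 and 3 of Tie2-Cre (0.0649 to 0.117) and sex as a covariate (0.178), with which Ccr2 was called higher. The summed level of the 18 genes was 11.2 to 18.9 CPM with Thy1-Cre and 17.3 to 24.7 CPM with Tie2-Cre. The T cell genes Cd3e and Cd8a did not exceed 6 and 3 counts in any of the 10 libraries, the B cell gene Ms4a1 did not exceed 2, and Ccr2, the monocyte chemokine receptor, reached 31 counts with Thy1-Cre and 6 with Tie2-Cre (1.25 ± 0.57, adjusted p = 0.12). Ly6c2 and Plac8, further genes of monocytes and too low to be tested, reached 28 and 20 counts with Thy1-Cre and 3 and 5 with Tie2-Cre. Most of the summed level came from Cd4, Mrc1, Cd163 and Lyve1, genes that resident macrophages of the brain's borders also express.

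Haemoglobin genes were lower with Thy1-Cre in 3 of 4 cases. Hba-a2 measured 10.6, 30.9, 15.7, 13.5 and 4.56 CPM with Thy1-Cre and 123, 144, 107, 140.4 and 149.7 CPM with Tie2-Cre (-3.15 ± 0.60, adjusted p = 0.000731), with controls at 53.6 to 134 CPM. No Thy1-Cre library reached the Tie2-Cre range. Hbb-bt fell by 2.54 ± 0.57 and Hbb-bs by 1.94 ± 0.51 on the log2 scale, again without overlap. The fourth gene, Hba-a1, was not called, and its highest count was 3125 with Thy1-Cre and 2617 with Tie2-Cre. How reads were split between Hba-a1 and Hba-a2 was not tested. The genes share 54.4 to 92.6% of their words with other globin genes, and none was called among females alone (adjusted p = 0.0632 to 0.206). Whether these counts come from blood left in the tissue was not tested.

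Endothelium is the cell type in which Tie2-Cre acts. Of 24 endothelial identity genes, 3 rose (Eng, Kdr and Cldn5) and none fell, with a median of 0.15. That upward share is close to the 12.4% of all tested genes. All 3 calls were lost when single libraries were left out: Eng (0.81 ± 0.25) without replicate 4 or 5 of Thy1-Cre or 1 or 5 of Tie2-Cre (adjusted p = 0.0504 to 0.0608), Kdr (0.70 ± 0.23) without those or replicate 3 of Thy1-Cre (0.0522 to 0.0952), and Cldn5 (0.60 ± 0.22) without any 1 of replicates 1, 3, 4 and 5 of Thy1-Cre and 1, 2 and 5 of Tie2-Cre (0.0501 to 0.161) and with sex as a covariate (0.157). The list's upward count ran from 0 to 6 over the left-out libraries, with none lower. With the 10 libraries fitted alone 5 rose and 2 fell, and by limma voom 6 rose and 3 fell. Ocln (-0.56 ± 0.22, adjusted p = 0.0642) and Abcb1a (-0.62 ± 0.25, adjusted p = 0.0796), named after their values were seen, did not pass in the main fit. In both, every Thy1-Cre library lay below every Tie2-Cre library. Pecam1 (0.50 ± 0.22, adjusted p = 0.111), past the threshold without replicate 2 of Thy1-Cre (0.0371) and with the 10 libraries alone (0.0465), and Cdh5 (0.30 ± 0.23, adjusted p = 0.378), both junction proteins of endothelium, were not called. The summed level of the 24 genes was 542 to 850 CPM with Thy1-Cre and 600 to 734 CPM with Tie2-Cre.

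Of 15 endothelial activation genes, 9 rose and none fell (median 0.78), with 4 called without replicate 5 of Thy1-Cre and 5 without replicate 1 of Tie2-Cre. Icam1, the leukocyte adhesion molecule, measured 8.38, 7.16, 10.9, 10.4 and 12.7 CPM with Thy1-Cre and 2.94, 2.71, 1.84, 2.43 and 1.94 CPM with Tie2-Cre (2.06 ± 0.38, adjusted p = 0.0005). All 5 Thy1-Cre libraries, replicate 2 among them, were above Tie2-Cre, and controls lay at 1.19 to 1.85 CPM. Selp and Sele, the selectins that catch rolling leukocytes, rose from near 0, Sele from 2 counts over Tie2-Cre to 101 over Thy1-Cre (ratio 50.8, 95% counting interval 13.7 to 425). That ratio was 19 without replicate 3 of Thy1-Cre, and 80.1 and 83.3 without replicates 2 and 3 of Tie2-Cre. Selp rose by 4.55 ± 1.06 (3.31 without replicate 3 of Thy1-Cre and 5.79 without replicate 1 of Tie2-Cre), and Ch25h, the cholesterol 25-hydroxylase, by 4.40 ± 0.72. Ch25h is also on the microglia list, and Icam1 is made by glia too.

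Around the vessels, 4 of 14 mural cell genes rose and Myh11, the smooth muscle myosin, fell (8.89 ± 2.27 to 3.73 ± 1.18 CPM, SD, n = 5 each, -1.25 ± 0.39). Tagln, a smooth muscle actin-binding protein, rose by 2.04 ± 0.50 (1.36 without replicate 3 of Thy1-Cre), the pericyte receptor Notch3 by 0.73 ± 0.20 and the filament gene Des by 1.32 ± 0.41. The Myh11 call was lost once sex was a covariate (adjusted p = 0.103) and when replicate 5 of Thy1-Cre or 1 of Tie2-Cre was left out (0.06 and 0.0572), and Des without replicate 5 of Thy1-Cre or 3 or 4 of Tie2-Cre (0.0506 to 0.0964). The upward count was 2 without replicate 5 of Thy1-Cre or replicate 4 of Tie2-Cre. Of 12 fibroblast genes only Ogn, a matrix proteoglycan, fell (-1.51 ± 0.39), joined by 1 more without replicate 2 of Thy1-Cre.

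Of 16 basement membrane genes, 6 rose and none fell (median 0.56). Sparc, a collagen-binding matrix protein made by glia and endothelium, measured 590.3, 396, 523, 951 and 486 CPM with Thy1-Cre and 242, 299.9, 272, 310.0 and 251 CPM with Tie2-Cre (1.10 ± 0.23, adjusted p = 0.00134), without overlap. Fibronectin (Fn1) rose by 1.62 ± 0.33, biglycan (Bgn) by 1.44 ± 0.28 and the collagen chain gene Col4a2 by 1.36 ± 0.29. None of the vascular and matrix genes named was called among females alone.

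In neurons, the targets of Thy1-Cre, calls ran mostly downward. Of 14 genes of excitatory neurons, 5 fell and 1 rose (median -0.25). Camk2a, the calcium-dependent kinase of excitatory synapses, measured 1587, 2434, 1973, 1974 and 1649 CPM with Thy1-Cre and 3692, 3908, 3832, 3982 and 4254 CPM with Tie2-Cre (-1.03 ± 0.16, adjusted p = 9.22e-05). Slc30a3, the synaptic zinc transporter, measured 39.9, 80.3, 51.5, 52.1 and 51.2 CPM against 102, 111, 104, 91.8 and 95.2 CPM (-0.87 ± 0.16). Neither overlapped, and in both replicate 2 was the closest to Tie2-Cre. The transcription factor Neurod1 fell by 0.98 ± 0.22, whereas Nptx1, a secreted pentraxin of synapses, rose (0.64 ± 0.16). Without replicate 4 or 5 of Thy1-Cre or replicate 3 of Tie2-Cre, 3 members fell, and without replicate 4 of Thy1-Cre Slc17a7 rose as well (adjusted p = 0.0404). Camk2a kept its call among females alone.

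Layer markers were split. Of 12 upper-layer genes, 5 fell and 1 rose (median -0.52), with 4 to 7 lower over the left-out libraries and 2 higher without replicate 1 of Thy1-Cre. Lamp5, a vesicle membrane protein, measured 73.8, 70.5, 74.3, 67.9 and 52.0 CPM with Thy1-Cre and 138, 136, 209, 138 and 141 CPM with Tie2-Cre (-1.17 ± 0.19, adjusted p = 0.00011). Wfs1, an endoplasmic reticulum membrane protein, went the other way at 319.6, 341, 358, 343 and 418 CPM against 178, 178, 140.3, 168 and 149 CPM (1.13 ± 0.19, adjusted p = 0.000173). The libraries of the groups were apart in both genes, replicate 2 included. Rspo1, a Wnt pathway agonist, fell by 1.15 ± 0.21 and the transcription factor Lhx2 by 0.80 ± 0.19.

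Of 14 deep-layer genes tested, 5 fell and 2 rose (median -0.34). The transcription factor Etv1 fell from 96.5 ± 6.93 to 52.8 ± 6.10 CPM (SD, n = 5 each, -0.87 ± 0.17), and the calmodulin regulator Pcp4 by 0.70 ± 0.17, with 19.9% shared words. The sulfatase gene Sulf1 rose from 18.8 ± 1.88 to 47.6 ± 7.75 CPM (1.34 ± 0.27, SD, n = 5 each) and the synaptotagmin gene Syt6 by 1.44 ± 0.29. None of the 4 overlapped. The downward count was 2 at its lowest, and it was 3 or fewer without any 1 of replicates 2, 3, 4 and 5 of Thy1-Cre or 1, 2 and 3 of Tie2-Cre. Lamp5, Wfs1, Rspo1, Etv1, Sulf1 and Syt6 were also called among females alone.

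Inhibitory neuron genes gave 4 higher and 3 lower of 21 (median 0.01). Gad2, a synthetic enzyme of GABA, rose from 221 ± 23.9 to 459 ± 124 CPM (SD, n = 5 each, 1.05 ± 0.20, no overlap), and its partner Gad1 by 0.63 ± 0.15. The downward count was 1 without any 1 of replicates 1 and 4 of Thy1-Cre and 1 and 5 of Tie2-Cre, and 4 at its highest. The upward members Npy and Sst are neuropeptide genes.

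Presynaptic genes were called mostly downward, with 1 exception. Of 18 presynaptic genes, 5 fell and 1 rose (median -0.16), and 5 fell without any left-out library. Rims1, a scaffold of the active zone, measured 112, 151, 149, 107 and 103 CPM with Thy1-Cre and 252, 252, 227, 293 and 268 CPM with Tie2-Cre (-1.05 ± 0.16, adjusted p = 9.13e-05). Stx1a, a syntaxin of vesicle fusion, measured 119, 149.5, 109, 133 and 103 CPM against 228, 233, 226, 209 and 223 CPM (-0.87 ± 0.14, adjusted p = 0.000141). In both genes the highest Thy1-Cre library lay well below the lowest Tie2-Cre library. Complexin 2 (Cplx2) fell by 0.80 ± 0.12 and synaptotagmin 1 (Syt1) by 0.42 ± 0.11. Sv2a, a vesicle glycoprotein, rose (0.30 ± 0.10, adjusted p = 0.035), a call lost with sex as a covariate and without any 1 of replicates 1 and 2 of Thy1-Cre and 1, 2, 4 and 5 of Tie2-Cre.

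Of 18 postsynaptic genes, 6 fell and 0 rose (median -0.24), with 3 lower without replicate 5 of Thy1-Cre. Dlg4, the scaffold PSD-95, measured 672, 712, 703, 611 and 627 CPM with Thy1-Cre and 803, 861, 845, 927 and 918 CPM with Tie2-Cre (-0.39 ± 0.07, adjusted p = 0.000498), a small difference without overlap. The AMPA receptor subunit genes Gria4 (-0.53 ± 0.13) and Gria3 (-0.50 ± 0.15) and the NMDA receptor subunit gene Grin2a (-0.44 ± 0.11) fell. Gria3, which lies on the X chromosome, lost its call once sex was a covariate (adjusted p = 0.0551) and when replicate 5 of Thy1-Cre was left out (0.063). Rims1, Stx1a, Cplx2 and Dlg4 kept their calls among females alone.

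Neuropeptide genes rose with Thy1-Cre. Of 19, 11 rose and none fell (median 0.73, no overlap in 6). Npy, neuropeptide Y, measured 382, 326, 336, 232 and 265 CPM with Thy1-Cre and 53.3, 53.1, 64.5, 72.3 and 59.2 CPM with Tie2-Cre (2.35 ± 0.37, adjusted p = 0.000101). Gal, galanin, measured 20.4, 15.3, 18.9, 6.61 and 16.7 CPM against 0.363, 0.581, 0.506, 0.478 and 0.169 CPM (5.20 ± 0.79, adjusted p = 7.03e-05). Replicate 2 stood with its group in both, and replicate 4 was the lowest. Scg2, the granin secretogranin II, rose by 1.80 ± 0.34 and Adcyap1, which encodes PACAP, by 2.47 ± 0.47. Npy, Gal and Adcyap1 kept their calls among females alone, 4 members in all.

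Several of these promoters hold the cAMP response element bound by CREB. The search for TGACGTCA, its own reverse complement, in the 250 bases before the start found it in 4 of 16 neuropeptide genes with a RefSeq promoter (25%) and in 2 of 17 immediate early genes (11.8%), against 1.77% of 27025 genes. The 4 sites are shown to set 2 called genes beside 2 uncalled ones, from RefSeq (GRCm38.p6) on the strand of the gene, with the element in capitals.
Scg2 (chr1:79440076-79440105, minus strand): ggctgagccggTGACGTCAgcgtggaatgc
Sst (chr16:23890874-23890903, minus strand): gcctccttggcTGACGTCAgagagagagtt
Chgb (chr2:132781559-132781588, plus strand): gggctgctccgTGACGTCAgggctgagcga
Pcsk1 (chr13:75089768-75089797, plus strand): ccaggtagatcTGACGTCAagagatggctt
Sst, somatostatin, rose by 0.73 ± 0.23 (adjusted p = 0.0281), a call lost with sex as a covariate (0.117) and without replicate 2 or 3 of Thy1-Cre or 1, 3 or 5 of Tie2-Cre (0.0506 to 0.0852). Chgb (0.03 ± 0.24, adjusted p = 0.952) and Pcsk1 (-0.11 ± 0.51, adjusted p = 0.909) did not pass. The AP-1 motif TGANTCA was in 1 of 16 neuropeptide promoters (6.25%) and in 3 of 21 reactive astrocyte promoters (14.3%), against 7.82% of all.

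Immediate early genes, which neurons switch on within minutes of firing, were called in both directions. Of 22, 3 rose and 4 fell, with a median log2 fold change of -0.62. The mean log2 CPM ran from 3.91 to 6.53 over the Thy1-Cre libraries and from 5.13 to 6.10 with Tie2-Cre. Arc (-1.78 ± 0.54) and Nr4a1 (-1.34 ± 0.46), named after their values were seen, were among those that fell, both with overlapping groups. With the 10 libraries fitted alone 1 of the 22 fell. Bdnf, a neuronal growth factor, measured 38.8, 154, 336, 34.9 and 119 CPM with Thy1-Cre and 23.7, 23.4, 33.1, 42.3 and 32.7 CPM with Tie2-Cre. Replicates 2, 3 and 5 were high, while replicates 1 and 4 lay among the Tie2-Cre values. Bdnf (2.14 ± 0.65, 1.49 without replicate 3 of Thy1-Cre), Nptx2 (2.84 ± 0.85) and Jun (0.79 ± 0.23) lost their calls without replicate 3 (adjusted p = 0.0918, 0.0571 and 0.0649), and Bdnf and Nptx2 with sex as a covariate (0.0627 and 0.0655). Nptx2 and Jun were also lost without replicate 1 and replicate 3 of Tie2-Cre respectively (0.0521 and 0.0545). Without replicate 3 none of the 22 rose. Nr4a2, a nuclear receptor, fell by 1.11 ± 0.32 and lost the call with the 10 libraries fitted alone (0.0754), and the downward count ran from 1 (without replicate 4 of Thy1-Cre or 2 of Tie2-Cre) to 7 (without replicate 3 of Thy1-Cre). Once sex was a covariate, 1 gene was called in each direction.

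Myelin genes were called lower in 4 of 19 cases and higher in 1 (median -0.51). Mal, a raft protein of myelin, measured 131, 128, 106, 133 and 99.3 CPM with Thy1-Cre and 211, 211, 263, 201 and 197 CPM with Tie2-Cre (-0.86 ± 0.15, adjusted p = 0.000243). The groups were apart in Mal, and its call was kept among females alone. Mbp, myelin basic protein, averaged 1382 ± 162 against 2259 ± 266 CPM (SD, n = 5 each, -0.71 ± 0.23), the connexin gene Gjc3 gave -0.93 ± 0.29 and Opalin -0.93 ± 0.29. All 3 calls were lost with sex as a covariate (adjusted p = 0.101 to 0.15) and without replicate 3 of either group (0.0515 to 0.0687). Gjc3 was lost without replicate 5 of Thy1-Cre as well, Mbp without replicate 1 of Thy1-Cre or 4 of Tie2-Cre, and Opalin without replicate 1 or 2 of Tie2-Cre or with the 10 libraries alone (0.053 to 0.0762). The downward count was 1 to 5. Of 12 genes of oligodendrocyte precursors, Vcan, a matrix proteoglycan that astrocytes also make, rose (0.95 ± 0.23), and 1 fell without replicate 2 of Thy1-Cre.

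Cell cycle genes rose in 18 of 20 cases (median 1.63, none lower), chiefly through 2 libraries. Mki67, a marker of cycling cells, measured 26.9, 2.06, 3.49, 31 and 2.80 CPM with Thy1-Cre and 1.52, 2.60, 1.24, 2.74 and 2.03 CPM with Tie2-Cre (2.71 ± 0.63, 2.12 without replicate 4 of Thy1-Cre). Replicates 1 and 4 were high and replicate 2 lay inside the Tie2-Cre range. The list's mean log2 CPM was 3.21 and 3.39 in those 2 libraries, 0.59 to 1.37 in the other 3, and 0.50 to 0.96 with Tie2-Cre. The mitotic kinase genes Aurka (1.38 ± 0.31, no overlap), Bub1 (3.33 ± 0.74, 2.67 without replicate 4) and Aurkb (3.07 ± 0.71, 2.40 without it) rose too. The count was 10 without replicate 4 and 8 with the 10 libraries fitted alone, and 0 among females alone. Any members left out by the filter of such a fit count as not called.

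Of 17 p53 target genes tested, 4 rose and none fell (median 0.26). Aen, an apoptosis-enhancing nuclease, rose from 22.2 ± 1.24 to 31.9 ± 5.81 CPM (SD, n = 5 each, 0.53 ± 0.12). Cdkn1a, the cyclin-dependent kinase inhibitor p21, averaged 124 ± 77.3 against 32.6 ± 22.6 CPM (SD, n = 5 each) and rose by 1.93 ± 0.57, a call lost without replicate 3 of Thy1-Cre (adjusted p = 0.0616) or 1 or 2 of Tie2-Cre (0.0509 and 0.0511). The death receptor gene Fas rose by 1.29 ± 0.39, lost without replicate 3 or 5 of Thy1-Cre (0.0544 and 0.0519) or with the 10 libraries alone (0.0532). The count was 2 without replicate 3 of Thy1-Cre or replicate 1 or 2 of Tie2-Cre, and 7 without replicate 2 of Thy1-Cre. Of 17 DNA damage and repair genes, 2 were called higher, no larger a share than the 12.4% of all genes, among them Fancd2, a crosslink repair gene (0.60 ± 0.20). The Fancd2 call was lost without replicate 3 or 5 of Thy1-Cre, without replicate 1, 2, 3 or 5 of Tie2-Cre (adjusted p = 0.0521 to 0.121 over these 6 libraries) and with sex as a covariate (0.0825). The count of the list was 0 without any 1 of replicates 1, 2, 3 and 5 of Tie2-Cre and 3 without replicate 2 of Thy1-Cre.

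Genes linked to the secretory phenotype of senescent cells rose in 12 of 17 tested cases (median 1.73, none lower, no overlap in 7). Plau, the urokinase plasminogen activator, measured 9.53, 5.27, 11.4, 27.2 and 10.7 CPM with Thy1-Cre and 2.58, 2.63, 3.54, 3.13 and 2.58 CPM with Tie2-Cre (2.15 ± 0.31, adjusted p = 3.85e-05). No library of the 2 groups overlapped. Its receptor Plaur rose by 3.25 ± 0.59 and the metalloproteinase gene Mmp12 by 4.41 ± 0.78. Plau and Plaur kept their calls among females alone. Reactive glia and activated endothelium also make several of these products, and the list shares members with the chemokine list.

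Feedback targets of the MAP kinase pathway, which Brap restrains, were called in 3 of 18 cases (median 0.24), no larger a share than the 20.7% of all tested genes. Fosl1, an AP-1 subunit, rose from 0.106 ± 0.0703 to 4.93 ± 5.24 CPM (SD, n = 5 each, 5.47 ± 0.95, 4.66 without replicate 3 of Thy1-Cre), and the ephrin receptor gene Epha2 by 1.66 ± 0.44. Etv1, described among the deep-layer genes, was the one that fell. Most of the list did not pass.

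Lysosomal genes rose in 16 of 22 cases (median 0.86, none lower, no overlap in 13). Gla, alpha-galactosidase, measured 30.2, 22.7, 32.3, 24.9 and 21.4 CPM with Thy1-Cre and 13.7, 11.7, 12.9, 13.4 and 13.5 CPM with Tie2-Cre (1.01 ± 0.14, adjusted p = 2.57e-05). Lipa, the acid lipase, averaged 39.6 ± 1.97 against 23 ± 1.97 CPM (SD, n = 5 each, 0.78 ± 0.12). In both every Thy1-Cre library lay above every Tie2-Cre library, and both stayed called among females alone. The tetraspanin gene Cd63 rose by 1.83 ± 0.31 and Cd68, which macrophages and microglia express, by 2.48 ± 0.43, more than the enzymes. Gla lies on the X chromosome.

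Proteasome subunit genes gave small and regular changes. Of 31, 28 rose and none fell, with a median of only 0.37, and in 24 all Thy1-Cre libraries lay above all Tie2-Cre libraries. Psmc4, an ATPase subunit of the regulatory particle, measured 95.9, 95.4, 84.5, 85.7 and 102 CPM with Thy1-Cre and 67, 67.6, 71.2, 59.9 and 66.5 CPM with Tie2-Cre (0.48 ± 0.09, adjusted p = 0.000392). The scaffold subunit genes Psmd1 (0.50 ± 0.10), Psmd12 (0.46 ± 0.08) and Psmd11 (0.40 ± 0.08) rose alike. The list's mean log2 CPM was 6.40 to 6.70 with Thy1-Cre and 6.14 to 6.25 with Tie2-Cre, with replicate 2 in the middle of its group at 6.53. The count was 22 to 28 over the left-out libraries, 18 with sex as a covariate and 7 among females alone, where Psmc4 and Psmd1 were called.

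**Figure D5:**
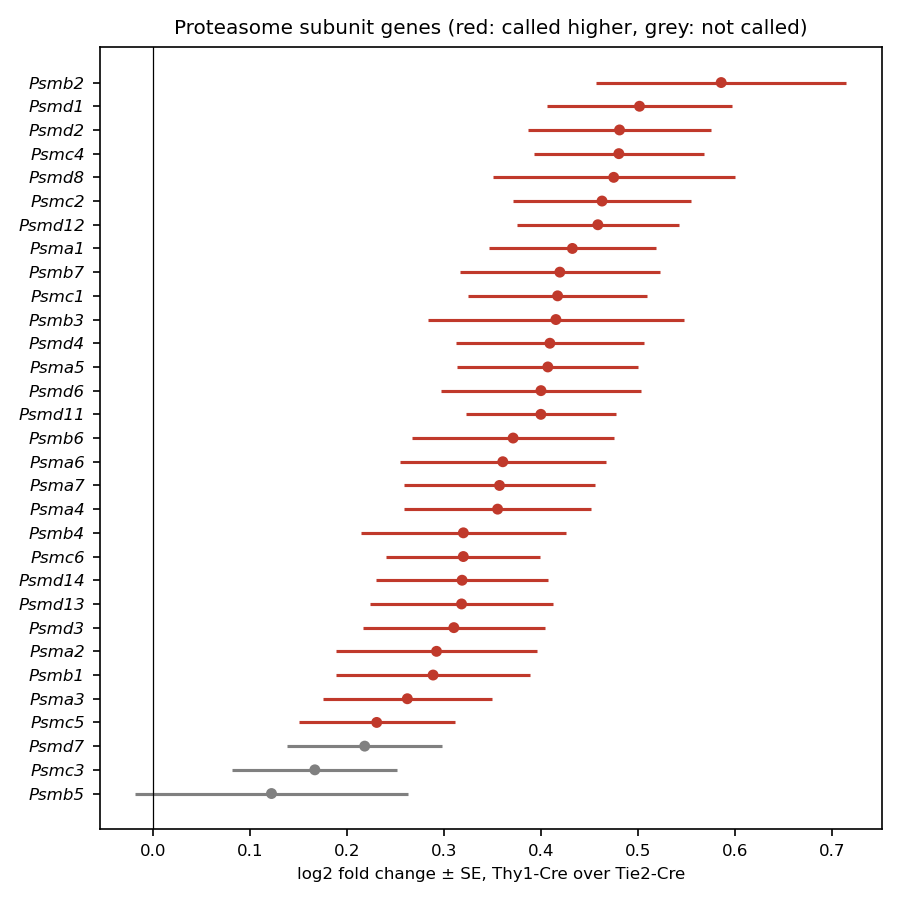
Each row is 1 proteasome subunit gene, with its log2 fold change of Thy1-Cre over Tie2-Cre (point) and standard error (line), red where called higher and grey where not. All 31 points lie above 0, from 0.12 for Psmb5 to 0.59 for Psmb2, and 28 are red.

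Other stress lists had 2 to 5 genes called, all higher, to be read against the 12.4% of all tested genes called higher. The shares for unfolded protein response and cholesterol synthesis genes were close to it. Of 12 heat shock genes 4 rose (median 0.34), and their mean in log2 CPM stood at 6.83, 6.09, 6.87, 6.76 and 6.997 in Thy1-Cre replicates 1 to 5 against 5.94 to 6.29 with Tie2-Cre. Replicate 2 lay in the Tie2-Cre range and the other 4 above it. By limma voom 7 were called. Bag3, a co-chaperone, rose by 1.35 ± 0.29 and Hspb1, a small heat shock protein with 52.3% shared words, by 4.55 ± 0.90 (3.57 without replicate 5 of Thy1-Cre). The count was 2 with sex as a covariate and without any 1 of replicate 5 of Thy1-Cre and replicates 1, 2 and 3 of Tie2-Cre. Of 14 unfolded protein response genes 2 rose, 1 of them Atf3, a stress-induced transcription factor (4.07 ± 0.74, 2.77 without replicate 3 of Thy1-Cre), and 1 rose with sex as a covariate or without any 1 of 7 libraries (replicates 2, 3, 4 and 5 of Thy1-Cre and 1, 2 and 5 of Tie2-Cre). Cholesterol synthesis gave 2 of 18, Fdft1 (0.38 ± 0.11) and Nsdhl (0.53 ± 0.18), both lost without replicate 1 or 2 of Thy1-Cre (adjusted p = 0.0548 to 0.0839) and Nsdhl also without replicate 4 of Thy1-Cre or 1, 3, 4 or 5 of Tie2-Cre (0.0579 to 0.0911), and 4 were called with the 10 libraries fitted alone. Of 11 glucocorticoid targets 3 rose, namely the metallothionein genes Mt1 (1.91 ± 0.36) and Mt2 (2.04 ± 0.39) and Cdkn1a. Above the control mean, that list lay at -0.11 log2 CPM in replicate 2 and at 0.89 to 1.21 in the other 4 Thy1-Cre libraries, and at 0.06 to 1.09 with Tie2-Cre. Of 27 nuclear genes of oxidative phosphorylation 5 rose (median 0.13), Sdhb among them (0.42 ± 0.10), with 1 to 6 called over the left-out libraries and 1 with sex as a covariate.

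Clock genes were called lower in 4 of 15 cases and higher in none (median -0.25). Hlf, an output factor of the clock, fell from 232 ± 24.2 to 98.8 ± 32.5 CPM (SD, n = 5 each, -1.23 ± 0.27), the repressor Nr1d2 by 0.67 ± 0.16 and Per3 by 1.03 ± 0.27, all without overlap. Per3 missed the threshold once sex was a covariate (adjusted p = 0.0512). Tef (-0.48 ± 0.17) lost its call without replicate 3 or 5 of Thy1-Cre or 1, 2, 4 or 5 of Tie2-Cre (0.0528 to 0.134), with sex as a covariate (0.113) and with the 10 libraries fitted alone (0.0687). With sex as a covariate 2 clock genes were called. The labels do not state the time of day at which tissue was taken.

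In 33 called genes all 5 Tie2-Cre libraries lay outside both the Thy1-Cre and the control range, 18 of them below and 15 above. This is 0.894% of called genes against 0.242% of all tested genes. Lying outside the Thy1-Cre range itself favours a call, so nothing is drawn from the larger share. None of the 33 passed for Tie2-Cre against control, and 32 had an adjusted p of 1 there. Sorcs2, a sorting receptor for neurotrophins (chromosome 5, 36017180 to 36398139, GRCm38), measured 34.3, 42.7, 37.3, 36.2 and 39.4 CPM with Tie2-Cre, 102, 76.7, 94.6, 109.7 and 99.6 CPM with Thy1-Cre and 52.8 to 68.8 CPM in controls. The difference of 1.34 ± 0.13 had an adjusted p of 2.09e-07, the smallest of the comparison together with that of Aspg. Tie2-Cre minus control was -0.77 (adjusted p = 0.0509), the other part of the contrast being a rise with Thy1-Cre. Sh3bp2, a signalling adaptor on the same chromosome (34525838 to 34563641), measured 2.90, 2.01, 3.45, 2.87 and 2.96 CPM with Tie2-Cre, 10.4, 5.27, 14.4, 14.7 and 15.5 CPM with Thy1-Cre and 4.44 to 5.34 CPM in controls (2.09 ± 0.28, adjusted p = 1.81e-05, and 1 for Tie2-Cre against control). Both calls of Thy1-Cre against Tie2-Cre were kept among females alone.

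Around Brap itself, 9 of 38 tested protein-coding genes within 1 Mb were called, a share close to the 20.7% of all tested genes and the 22.39% of protein-coding ones. Hvcn1, a proton channel of microglia (1.52 ± 0.32), Dtx1, a Notch regulator (0.68 ± 0.18), Arpc3, an actin-nucleating subunit (0.43 ± 0.11), and the chaperone gene Erp29 (0.37 ± 0.11) rose. Rasal1, a Ras GTPase-activating protein (-0.76 ± 0.22), and Aldh2 (-0.55 ± 0.19) fell. The interferon-induced synthetase genes Oas1a (2.77 ± 0.87, 2.08 without replicate 4 of Thy1-Cre), Oas3 and Oas1f were higher, each call being lost without replicate 5 of Thy1-Cre or replicate 1, 2 or 5 of Tie2-Cre (adjusted p = 0.0508 to 0.0755), Oas1a and Oas3 also without replicate 4 of Thy1-Cre. Erp29 was lost without replicate 4 of Thy1-Cre (0.0611), Rasal1 without replicate 5 (0.0547), once sex was a covariate (0.075) or with the 10 libraries alone (0.0674), and Aldh2 without most single libraries (0.0518 to 0.129). Within the same distance 4 of 38 genes near Thy1 and 2 of 7 near Tek were called, to be read against the same 20.7%.

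Genes of neighbouring tissue were checked for uneven dissection. The summed level of 10 choroid plexus genes ran from 117 to 1600 CPM with Thy1-Cre, from 307 to 811 CPM with Tie2-Cre and from 215 to 2050 CPM in controls, and 0 of the 10 were called (1 without replicate 1 or 3 of Thy1-Cre). Ttr, their most abundant product, averaged 366 ± 440 against 173 ± 134 CPM (SD, n = 5 each, adjusted p = 0.544). Sums of 11 striatal and hippocampal genes (567 to 851 against 575 to 845 CPM) and of 8 ependymal genes (11.6 to 18.2 against 11 to 20.7 CPM) overlapped between the groups. Of the 11, Wnt9b, a Wnt ligand, rose (5.25 ± 1.29) and Prox1 and Neurod1 fell, with 1 or 2 called in each direction over the left-out libraries. Wnt9b measured 0.855, 12.2, 22.7, 0.558 and 13.8 CPM with Thy1-Cre and 0.0775 to 0.465 CPM with Tie2-Cre. Replicates 2, 3 and 5 were high, as they were for Bdnf. Among the ependymal genes Tmem212 fell (-1.23 ± 0.44, adjusted p = 0.0481), a call lost without any 1 of replicates 1, 2 and 5 of Thy1-Cre and 3, 4 and 5 of Tie2-Cre.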

How the data were processed

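Whole-cortex polyA RNA was sequenced in 30 mouse libraries, of which 10 are compared here. The deposited values are estimated counts per gene, made by the authors with Salmon 1.5.2 on GRCm38 per the submitters' processing notes. For the annotation release and strand setting, the sources used here give nothing, and genes that overlap on opposite strands may share reads. Of these values 16.4 to 22.4% per library were not whole, and all were rounded. The 10 libraries held 21996022 to 28719731 counts, and intervals and floors cover counting error only.

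All 30 libraries were fitted with edgeR 4.0.16 (R 4.3.3; TMM scaling, robust quasi-likelihood, 24 residual degrees of freedom), with 1 coefficient per group. The filter kept genes by filterByExpr (minimum count 10, total 15), which left 17796 genes. Each gene was tested for Thy1-Cre minus Tie2-Cre with Benjamini-Hochberg adjustment over all of them, and the threshold was 0.05. Standard errors are the log2 fold change divided by the square root of F, and log2 CPM used a prior count of 2. Where every library of a group was at 0, a floor of 3 counts over the group was used. The labels name biological replicates without saying more, so p-values measure the spread between these samples. GENCODE M21 held 54166 of 54418 identifiers and served for coordinates and for the share of 31-base words found in other genes. Promoters came from RefSeq.

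Genes named are Brap, the driver genes, the 12 largest called changes in each direction at a mean of at least 1 CPM (Xist, Tsix and Y-linked genes served only to check sex), up to 4 members of smallest p per list and called neighbours of Brap, with others said to be chosen after their values were seen. The members and lists were chosen with earlier results of these data known. Alternatives were RLE scaling, 2 other filters, DESeq2 1.42.0, limma 3.58.1 voom, the 10 libraries alone, sex as a covariate, females alone, a replicate block and leaving out each library. In the list counts of an alternative, members not tested there count as not called. The procedure was tested on simulated counts.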

Additional observations from a re-analysis of the deposited data

Results flagged for a closer look

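In 172 groups of 5 libraries, 11 held a library whose gap to its nearest neighbour, as a share of the group's range, exceeded Dixon's 95% critical value. Chance alone marks about 1 in 20 groups.

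Replicate 2 of Thy1-Cre stood below its group in the mean log2 CPM of heat shock genes (6.09, others 6.75 to 7.0, gap share 0.733) and of glucocorticoid targets (5.31, others 6.30 to 6.63, gap share 0.752). Replicate 4 of Thy1-Cre stood above the rest in Saa3 (15.1 CPM, others 0.0879 to 3.85, gap share 0.75) and in Plau (27.2 CPM, others 5.27 to 11.4, gap share 0.722). Replicate 5 of Thy1-Cre was the lowest in Lamp5 (52.0 CPM, others 67.9 to 74.3, gap share 0.715).

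Among Tie2-Cre libraries, replicate 3 was apart in 4 genes. It was low in Fgf13 (137 CPM, gap share 0.96) and high in Isg15 (1.98 CPM, others 0.478 to 0.762, gap share 0.811), Lamp5 (209 CPM, others 136 to 141, gap share 0.933) and Mal (263 CPM, others 197 to 211, gap share 0.787). Replicate 4 was high in the mean of interneuron genes (5.39, others 5.13 to 5.17, gap share 0.846). Replicate 1 held the only Il1rn counts of its group (0.145 CPM, gap share 1.0).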

How the results depend on the processing

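Counts of 2200 higher and 1492 lower genes, and 1040 and 354 at least 2-fold, stayed within 1.5 times under RLE scaling, both other filters, DESeq2, limma voom, the 10 libraries alone and sex as a covariate. Over the left-out libraries they ran from 1700 to 2353, from 965 to 1623, from 861 to 1179 and from 217 to 434, the lowest downward counts being without replicate 5 of Thy1-Cre. Females alone gave 193 and 206, and 117 and 86 at least 2-fold, where fewer samples enter. Of 166 called genes followed, none changed sign in any alternative in which it was tested. The alternatives reuse the libraries from which these genes were chosen, so a kept sign is favoured by the choice. Calls missed the threshold for 0 under RLE, 18 with no filter, 2 by DESeq2, 12 by voom, 8 with the 10 libraries alone (26 were not tested there), 19 with sex as a covariate, 123 among females alone and 6 to 23 without single libraries.

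With the replicate number as a block, the 10 libraries gave 1229 higher and 1136 lower genes, 538 and 257 of them at least 2-fold. Of the 166, 25 were lost there and 26 were not tested. The cause was not tested. Same-numbered libraries correlated at -0.0811 to 0.0453 and no Thy1-Cre library matched its own number best. With only 5 such pairs this cannot show whether equal numbers share more than the number, and the labels do not say. Depth of 21996022 to 28719731 counts limits genes of a few counts per library.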
